A study of Mus musculus with 6 samples.

Results

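The genes described here are the main parts of the Hippo pathway: the effectors Yap1 and Wwtr1 (which encodes TAZ), the DNA-binding partners Tead1, Tead2, Tead3 and Tead4, the TEAD repressor Vgll4, the kinases Lats1 and Lats2, and the kinase activator Nf2. They were taken by gene symbol from the table of raw read counts and make up 10 of the 53599 symbols in it. RNA-seq was run on hepatocytes isolated 4 days after injection of AAV8, an adeno-associated viral vector that reaches the liver. The Sox4 group received AAV8-TBG-HA-Sox4-P2A-Cre, which carries mouse Sox4 with an HA tag, a P2A peptide that separates the 2 products, and Cre recombinase. The empty vector (EV) group received AAV8-TBG-Cre, so that Cre was present in both groups, and there were 3 libraries per group. The EV libraries carry the genotype WT in the labels and the others the genotype Sox4. The study's methods describe the host animals as young male mice on a C57BL/6J background that are homozygous for a Rosa-LSL-Cas9-EGFP allele, which Cre switches on, so Cas9 and EGFP were shared by both groups. The TBG promoter is active in hepatocytes, so Sox4 was forced in these cells at a level set by the vector. Cells were released with liberase and enriched on Percoll, which depletes other liver cells without removing all of them.

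In the Hippo pathway the kinases MST1 and MST2 activate LATS1 and LATS2, with the help of adaptor proteins and of NF2 at the cell membrane. LATS kinases phosphorylate YAP and TAZ, which are then held in the cytoplasm or degraded. YAP and TAZ that reach the nucleus bind TEAD proteins, since neither binds DNA on its own, and VGLL4 competes with them for TEAD. In the liver the pathway limits organ size, and YAP is kept low in hepatocytes and high in bile duct cells. Much of this control acts on protein, which RNA-seq does not measure.

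A pair of promoter windows are printed because Tead2 and Vgll4 were among the genes that rose and each holds the letters of a motif that bears on the question. Windows cover the 250 bases before a gene's start in RefSeq, on build GRCm38.p6. The SOX core was searched as CTTTGT and ACAAAG, and the TEAD core as CATTCC and GGAATG, which are the same letters on either strand. Capitals mark the match, the SOX core in Tead2 and the TEAD core in Vgll4.
Tead2, chr7:45215542-45215791, plus strand: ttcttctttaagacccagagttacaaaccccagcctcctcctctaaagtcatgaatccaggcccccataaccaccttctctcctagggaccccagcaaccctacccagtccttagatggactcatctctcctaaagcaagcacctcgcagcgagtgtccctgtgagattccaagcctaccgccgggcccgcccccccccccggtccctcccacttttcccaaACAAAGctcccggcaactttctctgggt
Vgll4, chr6:114969204-114969453, minus strand: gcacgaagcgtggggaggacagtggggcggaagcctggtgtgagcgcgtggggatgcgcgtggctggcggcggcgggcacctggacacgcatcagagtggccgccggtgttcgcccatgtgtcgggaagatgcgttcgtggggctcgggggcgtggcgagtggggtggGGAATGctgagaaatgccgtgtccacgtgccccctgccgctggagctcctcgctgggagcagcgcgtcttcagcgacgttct
The match in Tead2 begins 28 bases before the start and the match in Vgll4 begins 82 bases before it. There were 13 windows for 8 of the 10 genes, and none for Tead1 and Tead4. The SOX letters stood in 1 of these 13 windows, that of Tead2, and in 16.5% of all 32851 windows. The TEAD letters stood in 6 of the 13 windows, those of Tead3, Vgll4, Wwtr1 and Yap1, and in 12.6% of all windows. Both Wwtr1 windows hold the same match, since they overlap. By gene, 1 of 8 had the SOX letters, beside 18.6% of all genes with a window, and 4 of 8 had the TEAD letters, beside 14.4%. Of the 4 with the TEAD letters, only Vgll4 was among the genes that rose. Lats2 also rose and holds neither motif in any of its windows. The printed pair was picked for both a rise and a match, and whether these go together was not tested. A match describes the letters in a window and is no measure of binding.

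Sox4 itself served as a check of the labels. It had 2, 0 and 3 reads in the EV libraries and 21697, 15097 and 11816 reads in the Sox4 libraries, which fits the labels of all 6. Total counts ranged from 15090629 to 16964860 per library. Levels are given as CPM, that is, counts scaled to a library of 1e+06 reads after adjustment of the library sizes by the trimmed mean of M-values method (TMM), as mean ± SD with n = 3. Of 12691 genes tested with the edgeR quasi-likelihood test, 55.1% passed an adjusted p of 0.05, 29.0% as higher and 26.0% as lower with Sox4, and in 63.0% the libraries of the groups did not overlap. With library size alone the median log2 fold change of all genes was 0.51 against 0.04 with TMM, and the share of calls that were higher was 79.9% against 52.7%. All directions given are those on the TMM scale. Of the genes named here, those that change sign with library size alone are pointed out. Listed genes that are not named may change sign too.

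Of the 9 genes that passed the filter on low counts, 4 rose with Sox4, namely Tead2, Tead1, Lats2 and Vgll4. The other 5, Yap1, Wwtr1, Tead3, Lats1 and Nf2, did not pass the test, and Tead4 was under the filter. The 4 genes are to be read against the 29.0% of all genes tested that were higher. The groups did not overlap in 6 of the 9, Yap1, Wwtr1, Tead1, Tead2, Vgll4 and Lats2, against 63.0% of all genes. The median log2 fold change over the 9 genes was 0.23, against 0.04 over all genes. The change was uneven, with Tead2 going from at most 7 reads to at least 1564 reads per library while the effectors moved little. Hepatocyte RNA was bulk RNA, so a change in the share of cells of a type and a change in RNA per cell cannot be told apart in any of these values.

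**Figure D1:**
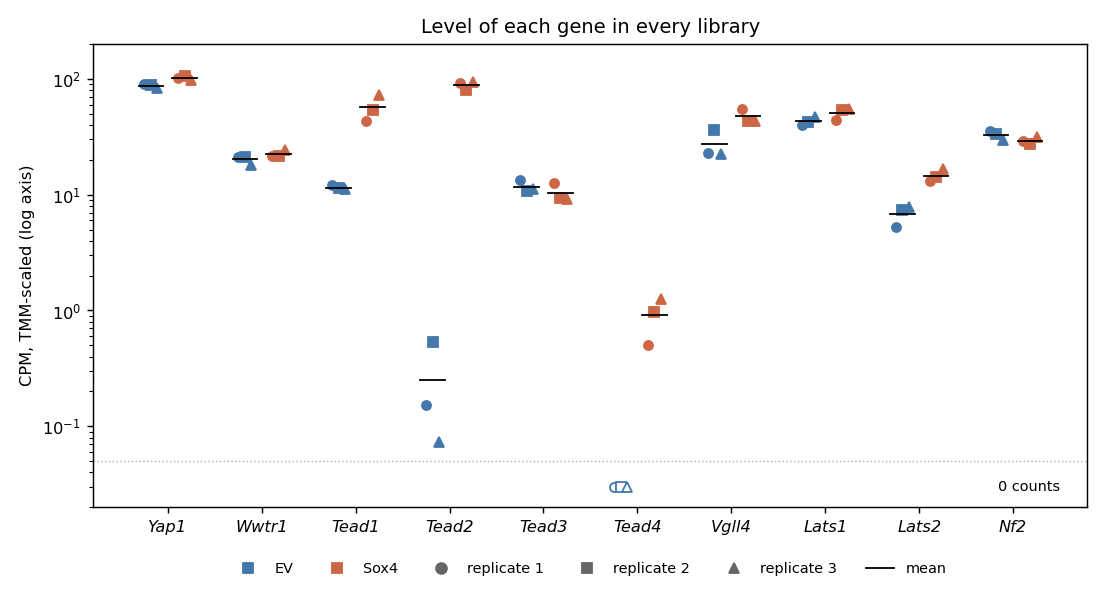
CPM on TMM-scaled library sizes (log axis) of each gene in every library, EV in blue and Sox4 in orange, with the symbol shape giving the replicate number and a line at the mean of 3. Tead2 lies under 0.6 CPM in EV and between 79.8 and 94.0 CPM in Sox4, Tead4 has no reads in EV (open symbols), and Yap1, Wwtr1, Tead3, Lats1 and Nf2 lie at like heights in both groups.

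The effectors come first. Yap1, the main transcriptional coactivator of the pathway, had 90.3, 87.7 and 83.5 CPM in EV and 101, 106 and 98.6 CPM with Sox4. All Sox4 libraries were above all EV libraries, but by little. The log2 fold change was 0.23 ± 0.05 (SE) and did not pass the test over all genes (edgeR adjusted p = 0.0793, unadjusted p = 0.0476). Wwtr1, which encodes the YAP paralog TAZ, had 21.2, 21.2 and 18.1 CPM in EV and 21.7, 21.4 and 24.2 CPM with Sox4. Its groups were set apart by a small margin, and the log2 fold change was 0.16 ± 0.09 (edgeR adjusted p = 0.329). Both genes passed the test with library size alone, at log2 fold changes of 0.70 and 0.63 (edgeR adjusted p = 2.6e-04 and 0.0022), that is, at values not far from the median shift of all genes under that scaling.

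The ratio between the effectors was measured within each library, which removes the scaling between libraries. Counts were divided by gene length (the union of annotated exons) to allow a comparison between genes. The log2 ratio of Wwtr1 over Yap1 was -1.16 ± 0.08 in EV and -1.23 ± 0.14 with Sox4 (SD, n = 3). The difference of -0.07 ± 0.10 (SE) was within the spread between libraries (exact two-sided permutation p = 0.6). Wwtr1 mRNA thus stood at 0.446 of Yap1 mRNA per length in EV and at 0.426 with Sox4. This level depends on the length used, and with the length of the longest coding transcript it was 0.205 and 0.195, with the same difference between groups.

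The TEAD genes, which encode the factors that carry YAP and TAZ to DNA, held the largest changes. Tead2, a family member best known from the early embryo, had 2, 7 and 1 reads in the EV libraries and 1822, 1564 and 1858 reads in the Sox4 libraries. On the CPM scale these were 0.154, 0.531 and 0.0725 in EV and 91.2, 79.8 and 94.0 with Sox4. The Sox4 libraries were alike and far above EV, where 2 of the 3 libraries were at or under the floor of 3 reads. The log2 fold change was 8.42 ± 0.53 (edgeR adjusted p = 1.2e-07), the rank 53 of 12691 genes when ordered from the most positive. Its size is set by the few EV reads, and with 1 library left out it ranged from 7.96 to 9.52.

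Tead1, which is expressed in many tissues, had 12.0, 11.4 and 11.2 CPM in EV and 43.3, 54.1 and 73.1 CPM with Sox4. The EV libraries were close to each other, and the Sox4 libraries were spread but all well above them. The log2 fold change was 2.30 ± 0.22 (edgeR adjusted p = 1.1e-05). Tead3 had 13.3, 10.8 and 11.1 CPM in EV and 12.6, 9.39 and 9.26 CPM with Sox4. The groups overlapped, and the log2 fold change was -0.17 ± 0.17 (edgeR adjusted p = 0.429), with the sign turning to 0.29 with library size alone (edgeR adjusted p = 0.183). Tead4 had no reads in EV and 10, 19 and 25 reads with Sox4. At 0.912 ± 0.386 CPM it was under the filter and was not tested. Against the floor of 3 reads per EV library the mean was at least 4.05-fold higher.

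Per length, the make-up of TEAD mRNA was exchanged. In EV, Tead3 gave 65.9 ± 2.7% of the sum over the 4 genes, Tead1 gave 32.1 ± 1.4% and Tead2 gave 2.01 ± 2.02% (SD, n = 3). With Sox4, Tead2 gave 75.5 ± 2.7%, Tead1 gave 17.1 ± 3.6%, Tead3 gave 6.38 ± 1.28% and Tead4 gave 1.03 ± 0.40%. The Tead2 share was 1.11%, 4.32% and 0.608% in the EV libraries and 78.6%, 74.7% and 73.4% in the Sox4 libraries. The groups lay far apart, with a difference of 73.5 ± 1.9 percentage points (SE). The exact two-sided permutation test gave p = 0.1, which is the smallest p that 3 against 3 libraries allow. Over the 5 within-library measures tested, the adjusted p was 0.167 for each that reached this limit. The share of Tead1 was lower with Sox4 although its level rose, because the sum of the 4 genes went from 2.65 ± 0.22 to 24.4 ± 2.2 CPM per kb.

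**Figure D2:**
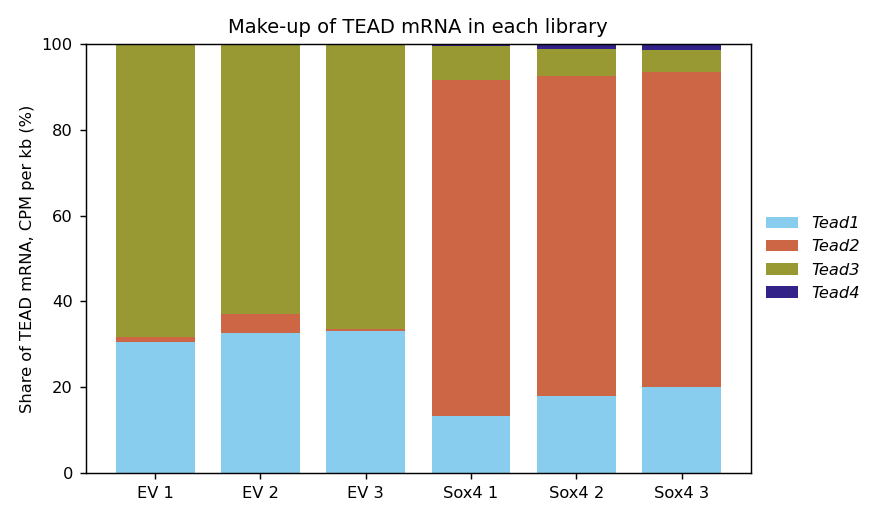
Share of each TEAD gene in the sum over the 4 genes, in percent of CPM per kb of exon length, as 1 bar per library. Tead3 fills 63.0 to 68.4% of the EV bars, and Tead2 fills 73.4 to 78.6% of the Sox4 bars.

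The balance of effector to TEAD mRNA changed with it. The log2 ratio of Yap1 plus Wwtr1 over the 4 TEAD genes, per length, was 2.29, 2.44 and 2.36 in EV and -0.65, -0.48 and -0.77 with Sox4. Effector mRNA was in excess in each EV library and in deficit in each Sox4 library. The difference was -3.00 ± 0.09 (SE), with p = 0.1 in the exact permutation test, again the smallest possible. In linear terms the ratio was 5.15 in EV and 0.645 with Sox4, or 4.62 and 0.819 with the length of the longest coding transcript. RNA ratios per length say nothing of the amounts of protein.

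Vgll4, whose product competes with YAP for TEAD, had 22.9, 36.3 and 22.3 CPM in EV and 55.1, 43.5 and 43.5 CPM with Sox4. EV replicate 2 stood above the other EV libraries and below all Sox4 libraries. The log2 fold change was 0.80 ± 0.25 (edgeR adjusted p = 0.0069) and ranged from 0.66 to 1.05 with 1 library left out. The increase was smaller than that of the TEAD sum. The log2 ratio of Vgll4 over the 4 TEAD genes, per length, was 0.89 ± 0.44 in EV and -1.48 ± 0.24 with Sox4 (SD, n = 3), a difference of -2.37 ± 0.29 (SE, exact permutation p = 0.1). Reads of Vgll1, Vgll2 and Vgll3, the other cofactors of this family, were at 0 in all 6 libraries.

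Among the kinases, Lats1 had 40.3, 42.7 and 47.1 CPM in EV and 43.8, 54.1 and 54.6 CPM with Sox4. The groups overlapped, and the log2 fold change was 0.23 ± 0.12 (edgeR adjusted p = 0.145). Without Sox4 replicate 1, its lowest Sox4 library, the gene passed the test at 0.32 (edgeR adjusted p = 0.0323), and with library size alone at 0.70 (edgeR adjusted p = 8.2e-04). Lats2, a kinase gene that is itself a target of YAP and TEAD, had 5.23, 7.43 and 7.83 CPM in EV and 13.0, 14.3 and 16.5 CPM with Sox4. The groups lay apart, with a log2 fold change of 1.09 ± 0.20 (edgeR adjusted p = 9.9e-04). In the GENCODE annotation on GRCm38, 42.4% of the exon bases of Lats2 are shared with Gm49361, and reads there may not be counted for either gene. Gm49361 was at 0 reads in all 6 libraries, and the level of Lats2 may be too low in both groups.

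Nf2, which encodes the membrane protein Merlin, had 35.3, 33.5 and 29.4 CPM in EV and 29.0, 27.5 and 31.3 CPM with Sox4. The groups overlapped and the log2 fold change was -0.16 ± 0.09 (edgeR adjusted p = 0.277). With library size alone the sign turned and the gene passed the test at 0.31 (edgeR adjusted p = 0.0475), under the median of all genes on that scale. The log2 ratio of Lats1 plus Lats2 over Yap1 plus Wwtr1, per length, was -0.98 ± 0.21 in EV and -0.80 ± 0.16 with Sox4 (SD, n = 3). These overlapped, with a difference of 0.18 ± 0.15 (SE, exact permutation p = 0.2). A difference in the balance of kinase and effector mRNA was not detected beyond the spread between libraries.

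**Figure D3:**
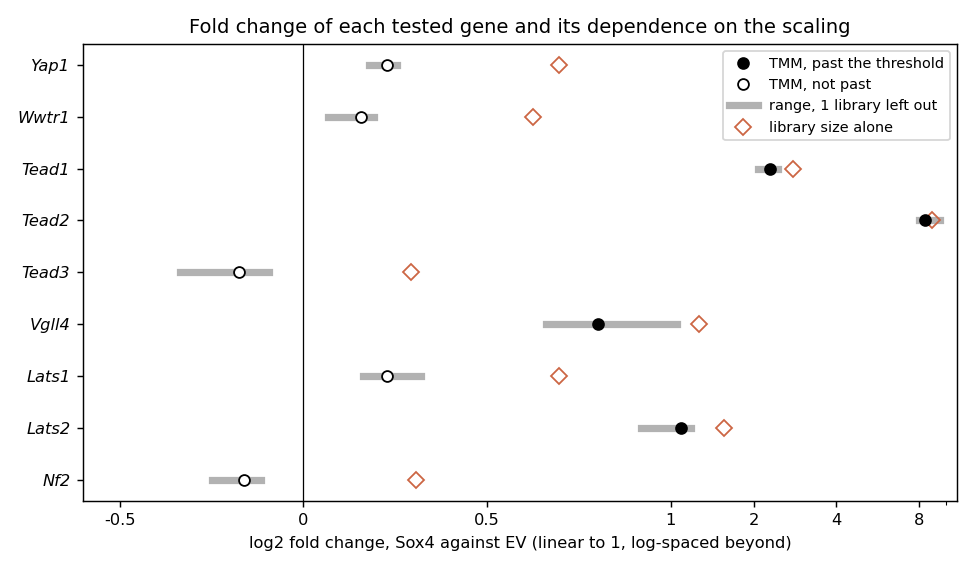
Log2 fold change of Sox4 against EV for the 9 genes tested (x axis, linear to 1 and log-spaced beyond), with TMM scaling (circles, filled where the edgeR adjusted p is under 0.05), its range with 1 library left out (grey bars) and library size alone (diamonds). Tead2, Tead1, Lats2 and Vgll4 are right of 0 under both scalings, and Tead3 and Nf2 change sign between them.

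Ordered by CPM per kb, the EV libraries had Yap1 first at 9.42, then Lats1 at 5.95, Vgll4 at 5.04, Nf2 at 4.80, Wwtr1 at 4.21, Tead3 at 1.75, Lats2 at 0.980, Tead1 at 0.849, Tead2 at 0.0527 and Tead4 at 0. The ranges over libraries overlapped between neighbours from Lats1 to Wwtr1 and between Lats2 and Tead1. With Sox4, Tead2 came first at 18.45, followed by Yap1 at 11.02, Vgll4 at 8.78, Lats1 at 6.97, Wwtr1 at 4.70, Nf2 at 4.29, Tead1 at 4.19, Lats2 at 2.09, Tead3 at 1.55 and Tead4 at 0.253. There the ranges overlapped from Wwtr1 to Tead1 and between Lats2 and Tead3. This order depends on the length used. With the length of the longest coding transcript, a choice made after seeing the data, Vgll4 in EV lay above Lats1, with libraries from 11.01 to 17.9 against 5.59 to 6.54 CPM per kb. With Sox4, Tead3 then lay above Lats2, at 3.34 to 4.53 against 2.51 to 3.18 CPM per kb, and Wwtr1 went from rank 5 to rank 7. On that length the libraries ranged from 23.5 to 27.7 for Tead2 and from 23.6 to 25.5 for Yap1 in CPM per kb, so these genes did not differ beyond their spread. Tead2 then gave 72.8% of TEAD mRNA with Sox4, and Tead3 gave 77.4% in EV.

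Genes that followed the same pattern over the 6 libraries were sought among 9024 others with a mean count of at least 100. The measure was the root mean square difference of log2 CPM after each gene was centred on its own mean. Closest to Tead2 were Prom1 at 0.37, Mex3a at 0.61 and Gpx2 at 0.64. Prom1, a surface protein used as a progenitor marker, went from 0.1004 CPM in EV to 63.0 CPM with Sox4. Closest to Tead1 were Hilpda at 0.11, Ccp110 at 0.11 and Smarcad1 at 0.15. Closest to Yap1 were Gemin5 at 0.01, Ep400 at 0.03 and Ddx24 at 0.03, all genes of small change.

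Genes of other liver cell types were measured beside these values. Summed over 10 hepatocyte markers, the level was 122650 to 146067 CPM in EV and 86104 to 99590 CPM with Sox4. This was far above every other list in all 6 libraries. All sums are on the TMM scale, and the distance between the groups depends on that scaling. The sum of 10 endothelial markers was 18.2 to 28.1 CPM in EV and 16.9 to 37.0 CPM with Sox4, and that of 10 Kupffer cell markers was 13.4 to 28.8 and 29.1 to 67.8 CPM. The sum of 11 stellate cell markers was 8.77 to 47.5 CPM in EV and 90.1 to 147 CPM with Sox4. Most of this was Reln, and without it, a choice made after seeing the data, the sums were 1.69 to 10.01 and 10.3 to 39.4 CPM. The sum of 8 lymphoid and neutrophil markers was 0.770 to 2.43 CPM in EV and 1.502 to 4.49 CPM with Sox4, with Ly6g at 0 in all 6 libraries.

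Sox4 replicate 1 held the lowest endothelial, Kupffer and Reln-free stellate sums of its group, at 16.9, 29.1 and 10.3 CPM, which are under or just above the highest EV values. In that library Tead2 was at 91.2 CPM and Vgll4 at 55.1 CPM, the latter its highest value. Tead1 and Lats2, in contrast, had their lowest Sox4 values there, at 43.3 and 13.0 CPM, still above every EV library. EV replicate 1 likewise held the lowest of these sums in its group, at 18.2, 13.4 and 1.69 CPM. In EV replicate 1 Tead1 had its highest EV value, 12.0 CPM, and Lats2 its lowest, 5.23 CPM. Whether these other cells contributed to the spread of Tead1 and Lats2 was not tested. The sum of 10 cholangiocyte markers was 22.9 to 27.3 CPM in EV and 38.0 to 45.8 CPM with Sox4. Of its defining keratins, Krt7 and Krt19 had no reads in EV, and Krt19 had 9, 2 and 7 reads with Sox4.

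**Figure D4:**
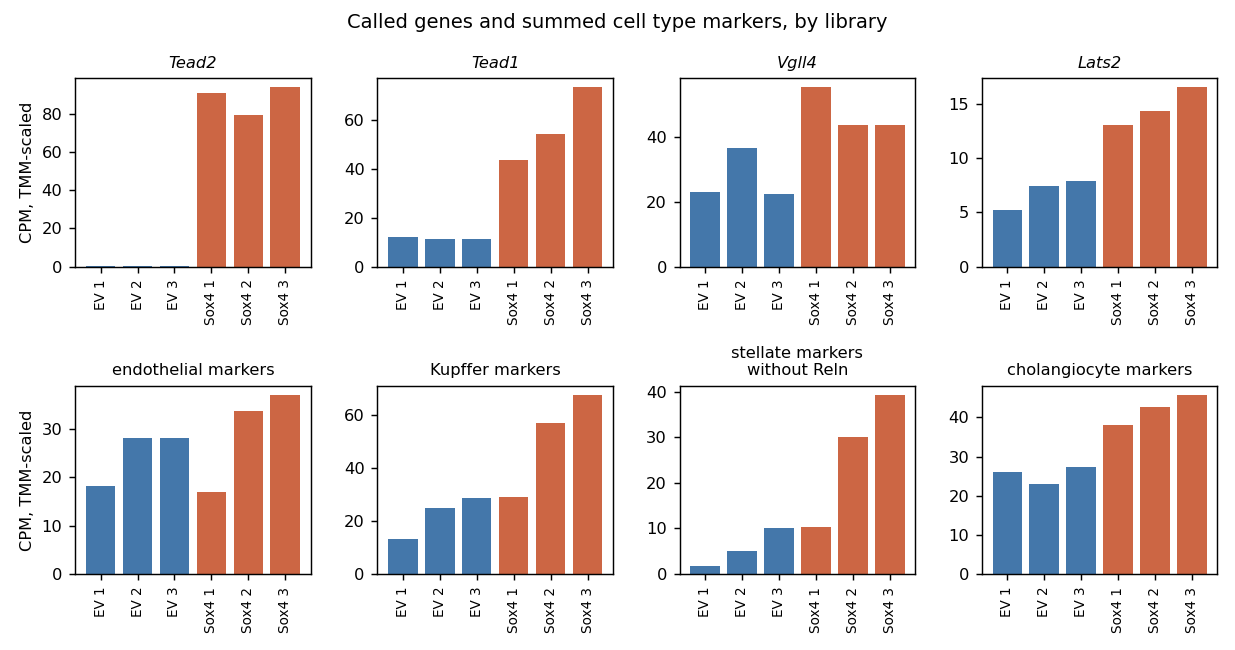
CPM on TMM-scaled library sizes, 1 bar per library, for the 4 genes that passed the test (top) and for the summed markers of 4 other liver cell types (bottom), EV in blue and Sox4 in orange, each panel on its own linear scale from 0. In Sox4 replicates 1 to 3 the Kupffer sum is 29.1, 57.2 and 67.8 CPM. Tead1, at 43.3, 54.1 and 73.1 CPM, and Lats2, at 13.0, 14.3 and 16.5 CPM, rise in the same order. Tead2, at 91.2, 79.8 and 94.0 CPM, and Vgll4, at 55.1, 43.5 and 43.5 CPM, do not.

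The rest of the pathway was described from a list of 61 other gene symbols. Map4k6 had no entry under that symbol among the counts, and 54 passed the filter on low counts. Of these 54, 26 rose and 4 fell with Sox4, and 24 did not pass the test. The share past the threshold, 55.6%, was near the 55.1% of all genes, and the median log2 fold change was 0.37 against 0.04. With library size alone 45 of these genes rose and none fell, so the 4 that fell did so relative to the TMM scale.

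In the core kinase and adaptor group, Stk3, which encodes MST2, rose by a log2 fold change of 0.79 ± 0.23 (edgeR adjusted p = 0.0083). The other 4 genes of the 5 did not pass, which left the group under the 55.1% of all genes, among them Mob1b at 0.23 ± 0.07 (edgeR adjusted p = 0.0926) and Stk4, which encodes MST1, at 0.25 ± 0.11 (edgeR adjusted p = 0.12). Of 10 genes tested for kinases that act on LATS beside MST, 3 rose and 1 fell, a share past the test of 40%, under the 55.1% of all genes. Map4k4 went from 4.46 ± 0.54 CPM in EV to 173 ± 6 CPM with Sox4, a log2 fold change of 5.27 ± 0.11 (edgeR adjusted p = 2.9e-08). Map4k3 rose by 0.41 ± 0.12 (edgeR adjusted p = 0.0198) and Map4k2 fell by 0.57 ± 0.18 on the log2 scale (edgeR adjusted p = 0.0287). Neither call was firm. Map4k3 no longer passed when EV replicate 1 was left out, at 0.34, nor when EV replicate 2 or Sox4 replicate 3 was, at 0.39 and 0.30. Map4k2 no longer passed at -0.58 and -0.52 when EV replicate 1 or 2 was left out, at -0.54 and -0.43 when Sox4 replicate 2 or 3 was, and at -0.10 with library size alone.

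Upstream and junctional regulators, which pass signals from cell contacts and polarity to the kinases, rose in 13 of 17 genes tested, and the other 4 did not pass the test. The share past the test was 76.5%, beside 55.1% of all genes, and the median log2 fold change was 1.26, beside 0.04. Amotl2 and Amot, angiomotin genes whose products bind YAP and also activate LATS, were among those that rose. The other angiomotin gene listed did not pass the test. Amotl2, itself a YAP target, had 25.0 ± 4.1 CPM in EV and 123 ± 11 CPM with Sox4 (log2 fold change 2.30 ± 0.15, edgeR adjusted p = 2.1e-06), and Amot had 14.4 ± 0.4 and 40.4 ± 5.8 CPM (1.49 ± 0.12, edgeR adjusted p = 1.8e-05). Fat1, a large protocadherin, had 73.1 ± 4.3 and 187 ± 11 CPM (1.36 ± 0.07, edgeR adjusted p = 9.4e-06).

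Inhibitors of the kinases moved in both directions, with 4 of 11 higher, 3 lower and 4 not past the test, so that 63.6% passed beside 55.1% of all genes, and a median of 0.05 beside 0.04. Ajuba, a LIM protein that holds back LATS at junctions, had 10.1 ± 1.2 CPM in EV and 103 ± 18 CPM with Sox4 (log2 fold change 3.35 ± 0.18, edgeR adjusted p = 5.9e-07). Its relative Wtip had 0.274 ± 0.190 and 4.24 ± 0.64 CPM (3.91 ± 0.47, edgeR adjusted p = 8.4e-05).

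Of 11 genes tested for the turnover, retention or phosphorylation of YAP and TAZ, 5 rose and 6 did not pass the test. The share that passed was 45.5%, under the 55.1% of all genes. Src, a kinase that phosphorylates YAP and LATS, had 3.58 ± 0.42 CPM in EV and 36.4 ± 8.9 CPM with Sox4 (log2 fold change 3.34 ± 0.23, edgeR adjusted p = 2.5e-06). Csnk1e, a casein kinase that marks YAP for degradation, had 5.03 ± 0.82 and 31.8 ± 0.8 CPM (2.66 ± 0.13, edgeR adjusted p = 1.5e-06). Ywhaq, a 14-3-3 protein of the kind that retains phosphorylated YAP, had 56.6 ± 6.8 and 209 ± 20 CPM (1.88 ± 0.12, edgeR adjusted p = 4.2e-06).

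**Figure D5:**
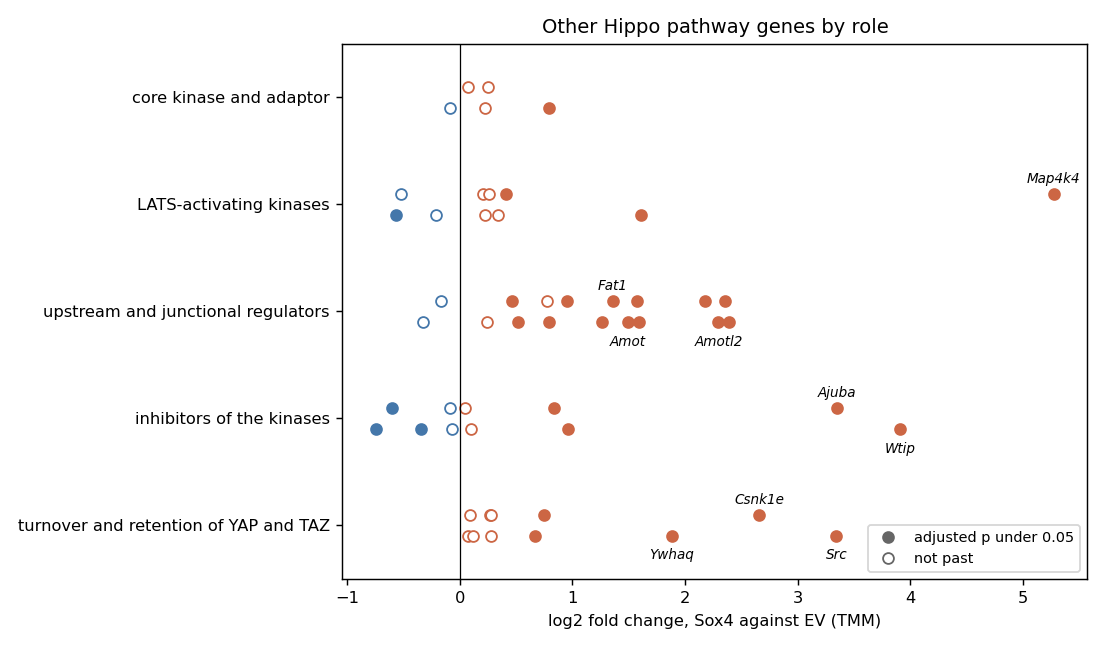
Log2 fold change of Sox4 against EV (x axis, TMM scaling) of the other pathway genes tested, 1 circle per gene, in rows by role, filled where the edgeR adjusted p is under 0.05. In the row of upstream and junctional regulators 13 of 17 circles are filled right of 0, and Map4k4 lies farthest right at 5.27.

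Output genes were read from a YAP and TEAD signature of 22 genes, of which 17 were tested, 10 rose and 1 fell, with a median log2 fold change of 1.22. The 64.7% of these genes that passed stand beside 55.1% of all genes, and the median beside 0.04. Lats2 is a member of this list. The list also shares Amotl2 and another gene that rose with the upstream and junctional regulators, so these counts are not independent. Ccn1, a secreted matrix protein, had 46.3 ± 5.5 CPM in EV and 483 ± 92 CPM with Sox4 (log2 fold change 3.38 ± 0.19, edgeR adjusted p = 8.9e-07), and Amotl2 is given above. Ccn2, a related matrix protein, had 0, 1 and 0 reads in EV and 202, 405 and 447 reads with Sox4, which was at least 79.0-fold higher against the floor of 3 reads per library (edgeR adjusted p = 6.5e-06).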

How the data were processed

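RNA-seq libraries of hepatocytes from 3 EV and 3 Sox4 injections were analysed, grouped by the titles in the sample labels. The authors deposited raw read counts per gene; the submitters' processing notes name STAR 2.7.10b, featureCounts 2.0.1, DESeq2 and build GRCm39. The annotation release, strand setting and handling of multimapping reads are not given in the sources used here. A second deposited table holds a normalized signal, in which each library's counts were divided by its DESeq2 size factor, and was used only as an alternative. The 6 per-sample columns of each table were all used.

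The counts were fitted with edgeR 4.0.16 in R 4.3.3 (filterByExpr with a minimum count of 10 and total of 15, TMM, robust quasi-likelihood F test, no covariate), and p-values were adjusted by Benjamini-Hochberg over all 12691 genes tested at a threshold of 0.05. Adjusted p-values are from this fit. The SE printed beside a log2 fold change was computed from the SDs of log2 CPM (prior count 2) in the 2 groups. Shares and ratios used CPM per kb of the exon union in GENCODE M21 and exact permutation tests in scipy 1.17.1. A count of 3 or fewer was the floor, and floors cover counting error only. The fit was tested on simulated counts in which few genes changed, as many up as down. That setting differs from these data, where 55.1% of the genes tested passed. Alternatives were DESeq2 1.42.0, limma 3.58.1, other scalings and filters, a replicate block and leaving out each library.

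The 10 genes and all gene lists were chosen with earlier results of these data known. Genes named outside the 10 are, by rule, the 3 with the smallest adjusted p in each list and the 3 closest in pattern. A gene that this rule names is not reported here. Libraries of the same group varied beyond counting noise (chi-square per degree of freedom of 17.6 to 62.7). The methods describe 3 animals per group, and the labels do not say how libraries relate to animals, so p-values measure the spread between these libraries.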

Additional observations from a re-analysis of the deposited data

How the results depend on the processing

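The increase of Tead1, Tead2, Vgll4 and Lats2 passed the test under all 14 alternatives. The count of 4 rose to 8 with library size alone, which added Yap1, Wwtr1, Lats1 and Nf2, and Tead3 and Nf2 changed sign there, to 0.29 and 0.31. It was 5 without the filter on low counts (with Tead4), 5 at a mean count of at least 50 (with Yap1), and 4 to 6 with 1 library left out. Over the same omissions the other pathway genes past the threshold ranged from 25 to 35 and the signature genes from 10 to 14. The shares and ratios kept their direction under every alternative run, and the difference in the Tead2 share was 55.6 percentage points with no length correction.

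Libraries with the same replicate number did not deviate together in every pair (correlations of 0.27, -0.09 and 0.13), so the numbers were not taken as pairs. With a replicate block, 4 of the genes, 32 other pathway genes and 12 signature genes passed. The within-pair difference in the Tead2 share was 73.5 points, with an exact permutation p of 0.25, the smallest that 3 pairs allow. With 3 libraries per group, changes of the size seen for Yap1 and Lats1 (log2 fold change of 0.23) passed the test under some settings only.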
